A study of Arabidopsis thaliana with 6 samples.

Results

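The class III peroxidases of Arabidopsis thaliana are a large gene family of secreted haem enzymes. They were compared here between secession cells (SEC), the abscission zone cells that leave with the shed floral organs, and residuum cells (REC), those that stay on the receptacle. Members were taken from the gene names and descriptions of the deposited count table: a name made of PER or PRX and a number, or a description naming the peroxidase superfamily or a numbered peroxidase, with ascorbate, glutathione, thioredoxin and peroxiredoxin entries dropped (16 rows). The rule found 75 of 33602 genes. Of these, 73 were numbered peroxidases, 1 was an unnumbered family gene (AT3G42570) and 1 was OCP3 (AT5G11270), a homeobox gene that matched only because its description mentions a peroxidase. Counts below are over the 74 peroxidases unless OCP3 is named.

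The 3 SEC and 3 REC libraries came from stage 16 flowers of transgenic plants. The transgene of both groups was proQRT2::nlsGFP-GUS, a nuclear green fluorescent protein under the QRT2 promoter. Sorting by it is meant to pick cells in which this promoter is active. The QRT2 transcript itself was far lower in REC than in SEC, as given below. How well the sort picked such cells in REC was not tested. Protoplasts were sorted by fluorescence, and polyadenylated RNA was amplified with the SMART-Seq V4 low-input kit. Nothing in the labels ties the libraries of a group to separate plants or separate sorting runs. The p-values therefore reflect the spread among these samples alone, and that spread may be technical. By its title, the series is about a lignin brace and the processing of cell walls. Setting SEC against REC asks how neighbouring cells that part from each other differ.

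Class III peroxidases use hydrogen peroxide to oxidise phenolic compounds in the cell wall. They turn monolignols into the radicals that couple into lignin, and they cross-link extensins and other wall phenolics. In the presence of suitable reductants some also produce reactive oxygen species, as in the apoplastic oxidative burst of pathogen defence, and the family has been linked to wall stiffening, cell elongation, root hair growth and stress. NADPH oxidases and superoxide dismutases supply hydrogen peroxide to the apoplast, laccases oxidise monolignols with oxygen instead, and many family members lie in tandem with close copies.

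The sequences of 2 such tandem pairs are shown first because the levels of their members are compared below. PER33 (AT3G49110; chr3:18200664-18203142, plus strand) and PER34 (AT3G49120; chr3:18207651-18210132, plus strand) had coding sequences 90.4% identical. The 120 bases printed are coding positions 24 to 143 of PER33 and 21 to 140 of PER34, from RefSeq's TAIR10.1 annotation. Capitals mark the 21 bases that differ between both genes.
PER33: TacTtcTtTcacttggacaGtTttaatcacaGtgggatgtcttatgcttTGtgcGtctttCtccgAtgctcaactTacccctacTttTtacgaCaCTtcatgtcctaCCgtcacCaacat
PER34: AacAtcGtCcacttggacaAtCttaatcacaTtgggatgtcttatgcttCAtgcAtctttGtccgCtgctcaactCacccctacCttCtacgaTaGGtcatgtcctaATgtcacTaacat

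PER50 (AT4G37520; chr4:17631562-17633249, plus strand) and PER51 (AT4G37530; chr4:17634784-17636288, plus strand) were 92.4% identical over their coding sequences. Their first 120 coding bases differed at 15 positions, in capitals.
PER50 coding: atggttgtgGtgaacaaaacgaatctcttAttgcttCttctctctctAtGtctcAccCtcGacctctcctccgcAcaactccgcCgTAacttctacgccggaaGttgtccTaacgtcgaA
PER51 coding: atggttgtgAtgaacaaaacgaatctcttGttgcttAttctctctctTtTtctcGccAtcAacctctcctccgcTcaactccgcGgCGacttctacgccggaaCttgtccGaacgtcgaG
The 250 bases before the start of each gene in RefSeq's annotation are also shown, because both genes were called higher in SEC. The windows are chr4:17631250-17631499 for PER50 and chr4:17634446-17634695 for PER51, on the plus strand of TAIR10.1. Capitals mark the longest run of letters that both windows share, 32 bases, which lay 163 to 132 bases before the start of PER50 and 232 to 201 bases before that of PER51.
PER50 upstream: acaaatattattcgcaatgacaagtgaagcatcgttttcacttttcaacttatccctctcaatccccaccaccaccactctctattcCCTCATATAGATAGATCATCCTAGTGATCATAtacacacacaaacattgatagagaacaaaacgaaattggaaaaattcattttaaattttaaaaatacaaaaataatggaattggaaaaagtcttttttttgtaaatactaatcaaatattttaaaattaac
PER51 upstream: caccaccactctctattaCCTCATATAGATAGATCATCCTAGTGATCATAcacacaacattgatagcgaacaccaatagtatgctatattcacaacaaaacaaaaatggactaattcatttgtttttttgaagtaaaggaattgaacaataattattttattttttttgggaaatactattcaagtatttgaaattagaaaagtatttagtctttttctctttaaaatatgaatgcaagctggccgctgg

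Levels are given as CPM, the counts of a gene relative to library size after scaling with edgeR's TMM factors, and a fold change is the log2 ratio of SEC over REC with its standard error from edgeR's quasi-likelihood fit. P-values are adjusted over all 17246 genes tested by the Benjamini-Hochberg method, and a gene is called below an adjusted p of 0.05. The libraries held 13222538 to 17192864 counts in SEC and 13721261 to 14659524 counts in REC, with 17644 to 19665 genes detected. Of 5 markers of the zone, 4 (QRT2, IDA, HAE and ADPG2) were higher in SEC and 1, the receptor gene HSL2, was lower. QRT2, a polygalacturonase gene and the source of the sorting promoter, was at 1552, 1748 and 1848 CPM in SEC replicates 1 to 3, against 23.4, 22.6 and 79.6 CPM in REC replicates 1 to 3. REC replicate 3 stood apart from the other REC libraries, with IDA, the abscission peptide gene, at 6.17 CPM against 0 and 0.331 CPM in REC replicates 1 and 2, and ADPG2, another polygalacturonase gene, at 27.8 CPM against 0.784 and 1.66 CPM. HSL2 was at 17.5, 21.1 and 11.4 CPM in SEC, against 62.4, 65.1 and 40.0 CPM in REC, with a log2 fold change of -1.74 ± 0.32 (SE; adjusted p = 0.00207 by edgeR). Values that rest on REC replicate 3 are given with and without it.

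In total the peroxidases reached a higher level in SEC. Their summed level was 4992, 5626 and 6112 CPM in SEC replicates 1 to 3, against 783, 678 and 1708 CPM in REC replicates 1 to 3, and the groups did not overlap. As a share of all gene counts, with no scaling between libraries, this was 0.406, 0.479 and 0.498% in SEC and 0.0946, 0.0838 and 0.201% in REC. PER52 alone supplied 62.5, 56.0 and 57.6% of the SEC sums and 39.9, 31.1 and 42.9% of the REC sums. Without PER52 the sums were 1872, 2478 and 2591 CPM in SEC, against 471, 467 and 976 CPM in REC, again with no overlap. Between 36 and 40 members had at least 1 count in a SEC library, and between 25 and 32 in a REC library. In sorted bulk samples, more cells with a transcript and more transcript per cell cannot be told apart.

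**Figure D1:**
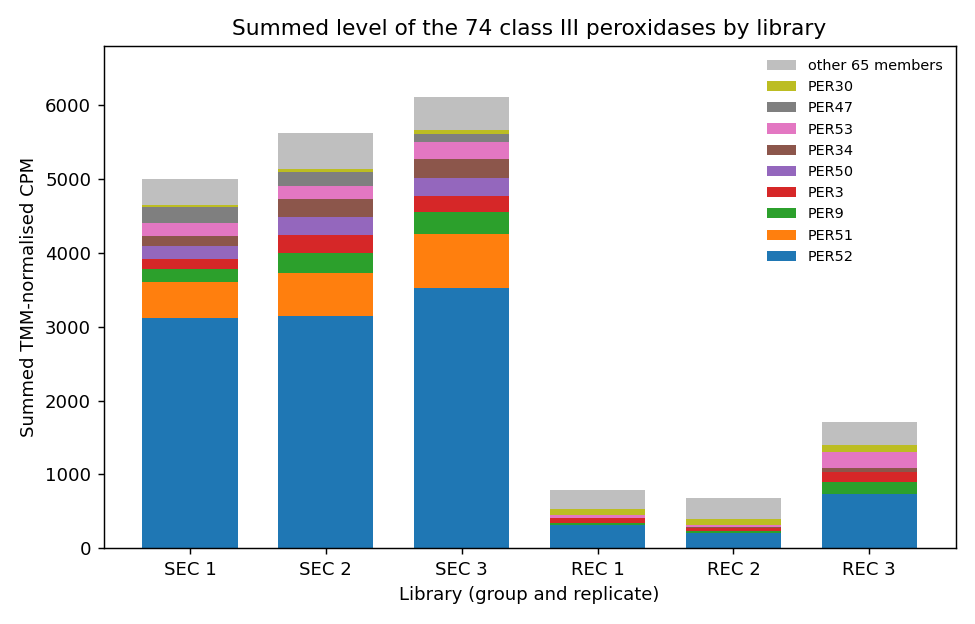
Summed TMM-normalised CPM (vertical axis) of the 74 class III peroxidases in each SEC library (left) and each REC library (right), with 9 members of high level in SEC or REC in colour and the other 65 in light grey. PER52 is the tallest coloured segment in every library, and REC replicate 3, at 1708 CPM, stands above REC replicates 1 and 2 and below every SEC library.

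Of the 74 peroxidases, 29 had enough counts to be tested, 19 had counts but too few, and 26 had no count in any library. Among the 29 tested, 14 (48.3%) had a higher level in SEC, 5 (17.2%) a lower one, and 10 missed the threshold. Among all genes tested, 28.9% were higher and 31.9% lower, 60.8% in all. The groups did not overlap for 23 of the 29 (79.3%), against 71.5% of all genes tested. A member that passed the filter on low counts only through the group where it was high had to differ, so these counts describe the tested members and not the family. The median log2 fold change was 2.30 over the tested peroxidases and -0.07 over all tested genes. OCP3 was lower, at 3.32 ± 1.88 CPM in SEC, against 16.8 ± 4.71 CPM in REC (SD, n = 3 each), with a log2 fold change of -2.33 ± 0.53 (SE; adjusted p = 0.0055 by edgeR).

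**Figure D2:**
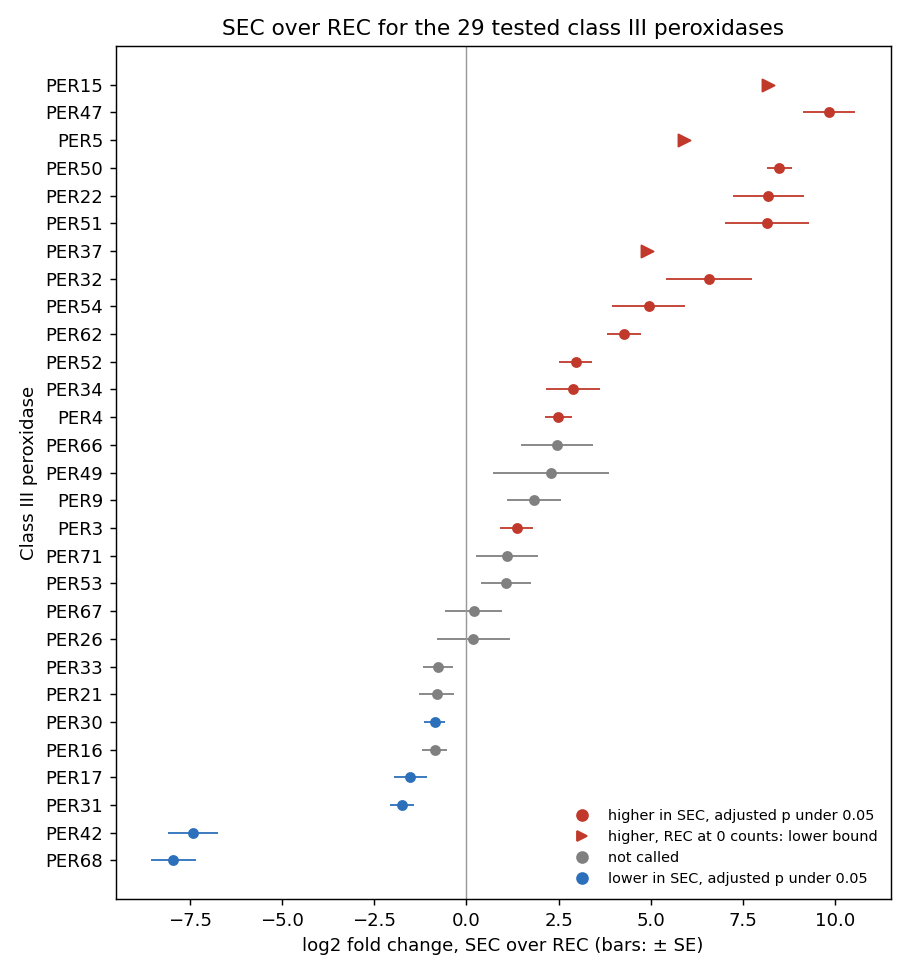
Log2 fold change of SEC over REC (horizontal axis) for the 29 tested class III peroxidases, ordered by the fitted value, with bars of 1 standard error. Triangles mark PER15, PER5 and PER37, which had 0 counts in REC and are drawn at their lower bound. Of the called members, 14 lie right of 0 and 5 left of it, and PER68 and PER42 lie far below the other 3 lower members.

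Scaling affects the balance of directions. With TMM factors, 47.5% of the called genes were higher in SEC. With library size alone 33.7% were, and over all tested genes the median then stood at -0.61 on the log2 scale, or at -0.31 with upper-quartile factors. With library size alone 13 members were higher, and 9 were lower with OCP3 included. With a filter that kept only genes over 10 CPM in 3 libraries, 9 members were higher. That filter left 11394 genes to test, of which 72.6% were called and 3899 were higher. PER5, PER15, PER32, PER37 and PER54, called higher in the main fit, were then not tested.

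Peroxidases linked to lignin in earlier work included the most abundant member. The list held 13 genes, of which 8 were tested: SEC had more of PER4, PER47 and PER52 and less of PER17, while PER9, PER53, PER66 and PER71 missed the threshold. PER2, PER25, PER39 and PER72 had no count in any library, and PER64, linked to the Casparian strip, had 0, 5 and 0 counts in SEC and 8, 5 and 4 counts in REC. The summed level of the list was 3744 to 4251 CPM in SEC, against 286 to 1134 CPM in REC, where 1134 CPM was REC replicate 3. PER52 supplied most of each sum, at 3120 to 3521 CPM in SEC and 211 to 732 CPM in REC.

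PER52 (AT5G05340; chr5:1578951-1580875, minus strand), a peroxidase linked to lignin of interfascicular fibres, was the most abundant member. It was at 3120, 3148 and 3521 CPM in SEC replicates 1 to 3, against 313, 211 and 732 CPM in REC replicates 1 to 3. Every SEC library was above every REC library, and among the REC libraries replicate 3 was the highest. The log2 fold change was 2.96 ± 0.45 (SE; adjusted p = 0.00075 by edgeR), and 3.65 without REC replicate 3. Per kilobase of RefSeq exon sequence, PER52 averaged 2502 ± 172 CPM in SEC, against 321 ± 212 CPM in REC (SD, n = 3 each), and it led the family in both.

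PER47 (AT4G33420; chr4:16084828-16086296, plus strand), which in roots has been linked to lignification of vessels, was almost confined to SEC in these libraries. It was at 214, 180 and 108 CPM in SEC, against 0.121, 0 and 0.412 CPM in REC, and the groups lay far apart. The log2 fold change was 9.84 ± 0.71 (SE; adjusted p = 2.46e-05 by edgeR), and 9.24 without REC replicate 2. Without REC replicate 3 only 2 counts were left in REC, and the ratio of SEC over REC was 2941 (95% counting interval 814 to 24288). In RefSeq's annotation PER47 overlaps BAK1 (AT4G33430) on the other strand. With no strand setting given in the sources used here, reads of both cannot be told apart where they overlap. BAK1 had 1976, 2580 and 2000 counts in SEC and 453, 671 and 857 counts in REC, with a log2 fold change of 2.23 (edgeR adjusted p = 0.000192), and its part in the PER47 value was not tested.

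PER4 (AT1G14540), studied in stem lignin, was at 46.9, 54.9 and 82.7 CPM in SEC, against 7.96, 8.89 and 15.9 CPM in REC. All SEC libraries were above all REC libraries, and the log2 fold change was 2.49 ± 0.37 (SE; adjusted p = 0.000665 by edgeR). PER17 (AT2G22420), reported to act in the formation of lignified tissue, went the other way. It was at 5.59, 4.31 and 7.71 CPM in SEC, against 25.0, 15.1 and 10.2 CPM in REC. The log2 fold change was -1.52 ± 0.45 (SE; adjusted p = 0.0184 by edgeR), and the call was lost without REC replicate 1 (adjusted p = 0.0705), SEC replicate 1 (0.0501) or SEC replicate 2 (0.0632).

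PER9 (AT1G44970), which cross-links extensins in the tapetum, and PER53 (AT5G06720), known from work on cell elongation, missed the threshold with all 6 libraries and passed it without REC replicate 3. PER9 was at 175, 266 and 301 CPM in SEC, against 27.9, 20.0 and 160 CPM in REC. The groups did not overlap, but REC replicate 3 was 6.67 times the mean of REC replicates 1 and 2. The log2 fold change was 1.84 ± 0.73 (SE; adjusted p = 0.0573 by edgeR), and without REC replicate 3 it was 3.38 (adjusted p = 0.000102). PER53 was at 178, 181 and 220 CPM in SEC, against 37.7, 28.8 and 209 CPM in REC, so that only REC replicate 3 reached the SEC libraries. For PER53 the log2 fold change was 1.07 ± 0.68 (SE; adjusted p = 0.203 by edgeR), and 2.55 without that library (adjusted p = 8.35e-05).

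The other tested members of the list were low. PER66 (AT5G51890), like PER47 linked to vessels, was at 3.46, 2.12 and 3.07 CPM in SEC, against 0.0603, 0.718 and 0.764 CPM in REC, without overlap. Its log2 fold change of 2.46 ± 0.98 missed the threshold (SE; adjusted p = 0.057 by edgeR). The gene AT5G51880, which overlaps it on the other strand in RefSeq's annotation, was at 0.38 (edgeR adjusted p = 0.133). PER71 (AT5G64120), which restricts growth after damage to the wall, was at 1.42, 11.1 and 7.06 CPM in SEC, against 1.57, 1.77 and 5.82 CPM in REC, and the groups overlapped. Its log2 fold change was 1.10 ± 0.84 (SE; adjusted p = 0.289 by edgeR), 1.97 without REC replicate 3 and 0.42 without SEC replicate 2.

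PER33 and PER34, the pair whose products supply the apoplastic oxidative burst in Arabidopsis, gave different calls. PER34 was at 138, 250 and 259 CPM in SEC, against 6.03, 20.0 and 60.6 CPM in REC, with no overlap. For PER34 the log2 fold change was 2.90 ± 0.73 (SE; adjusted p = 0.00898 by edgeR), and 4.06 without REC replicate 3. PER33 was at 7.72, 19.9 and 16.2 CPM in SEC, against 21.7, 19.9 and 33.0 CPM in REC. SEC replicate 2, at 19.89 CPM, lay just below REC replicate 2, at 19.93 CPM, so the groups only just did not overlap. The log2 fold change of PER33, -0.77 ± 0.41, was not called (SE; adjusted p = 0.134 by edgeR), though it was called lower with library size alone (-1.30, adjusted p = 0.024). The difference between both fold changes was not tested. The copies were 90.4% identical over their coding sequences, and the stretch printed above, with 21 of 120 bases different, is less alike than the whole. A read that fits both cannot be assigned by its letters.

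Root hair peroxidases were mostly at or near 0. PER62 (AT5G39580) was the 1 tested gene of 5 listed, at 101, 160 and 129 CPM in SEC, against 6.82, 2.98 and 10.2 CPM in REC. The groups lay far apart, and the log2 fold change was 4.28 ± 0.46 (SE; adjusted p = 0.000134 by edgeR). PER73 had no counts, PER1 had 2 counts in REC replicate 1 alone, and PER69 had 3 counts in SEC replicate 1 alone. PER44 had 0, 3 and 0 counts in SEC and 13, 0 and 0 counts in REC.

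PER50 and PER51, the tandem pair shown above, were both near 0 in REC and among the most abundant members in SEC. PER51 was at 490, 576 and 727 CPM in SEC, against 0, 1.27 and 5.06 CPM in REC. On the log2 scale it was higher by 8.14 ± 1.14 (SE; adjusted p = 0.00049 by edgeR), and 9.82 without REC replicate 3. PER50 was at 172, 240 and 242 CPM in SEC, against 0.784, 0.442 and 0.588 CPM in REC, 8.48 ± 0.34 higher on the log2 scale (SE; adjusted p = 1.17e-05, edgeR). The groups of both genes were far apart, and per kilobase of exon PER51, at 427 ± 85.7 CPM in SEC, ranked next after PER52, with PER50 at 158 ± 29.01 CPM (SD, n = 3).

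PER22 (AT2G38380) and PER32 (AT3G32980) had reads in only 1 REC library. PER22 was at 74.9, 76.1 and 43.5 CPM in SEC, against 0, 0 and 0.647 CPM in REC, and PER32 at 8.96, 19.2 and 24.6 CPM in SEC, against 0, 0 and 0.529 CPM in REC. Their log2 fold changes were 8.19 ± 0.97 and 6.58 ± 1.16 (SE; adjusted p = 0.000216 and 0.00158 by edgeR), and 7.59 and 5.99 without REC replicate 2. Without REC replicate 3, REC held no count of either gene, and PER22 was at least 765-fold and PER32 at least 204-fold higher in SEC. These bounds set REC at 3 counts over the group, and such bounds and intervals cover counting error only.

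PER15, PER5 and PER37 had 0 counts in every REC library. PER15 (AT2G18150) was at 2.93, 25.8 and 19.0 CPM in SEC and at least 289-fold higher there (edgeR adjusted p = 0.00125). PER5 (AT1G14550), the neighbour of PER4, was at 4.88, 3.14 and 2.42 CPM and at least 59.7-fold higher (adjusted p = 0.00174). PER37 (AT4G08770), which has been linked to growth and vascular bundles, was at 1.33, 1.85 and 2.04 CPM and at least 30.1-fold higher (adjusted p = 0.00345). SEC replicate 1 was the lowest SEC library for PER15 and PER37 and the highest for PER5.

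PER54 and PER3 complete the higher members. PER54 (AT5G06730), the neighbour of PER53, was at 9.32, 7.86 and 13.5 CPM in SEC, against 0, 0.663 and 0.294 CPM in REC. PER54 was higher by 4.95 ± 0.99 on the log2 scale (SE; adjusted p = 0.00296 by edgeR), and 6.02 without REC replicate 2. PER3 (AT1G05260), also named RCI3 and known from cold acclimation, was at 134, 247 and 225 CPM in SEC, against 63.6, 39.7 and 132 CPM in REC. SEC replicate 1 and REC replicate 3 were nearly level, and the log2 fold change was 1.37 ± 0.44 (SE; adjusted p = 0.0267 by edgeR), or 1.98 without REC replicate 3. That call was lost with library size alone (adjusted p = 0.123) and without REC replicate 1 (0.0826), REC replicate 2 (0.0645), SEC replicate 2 (0.0978) or SEC replicate 3 (0.0798).

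**Figure D3:**
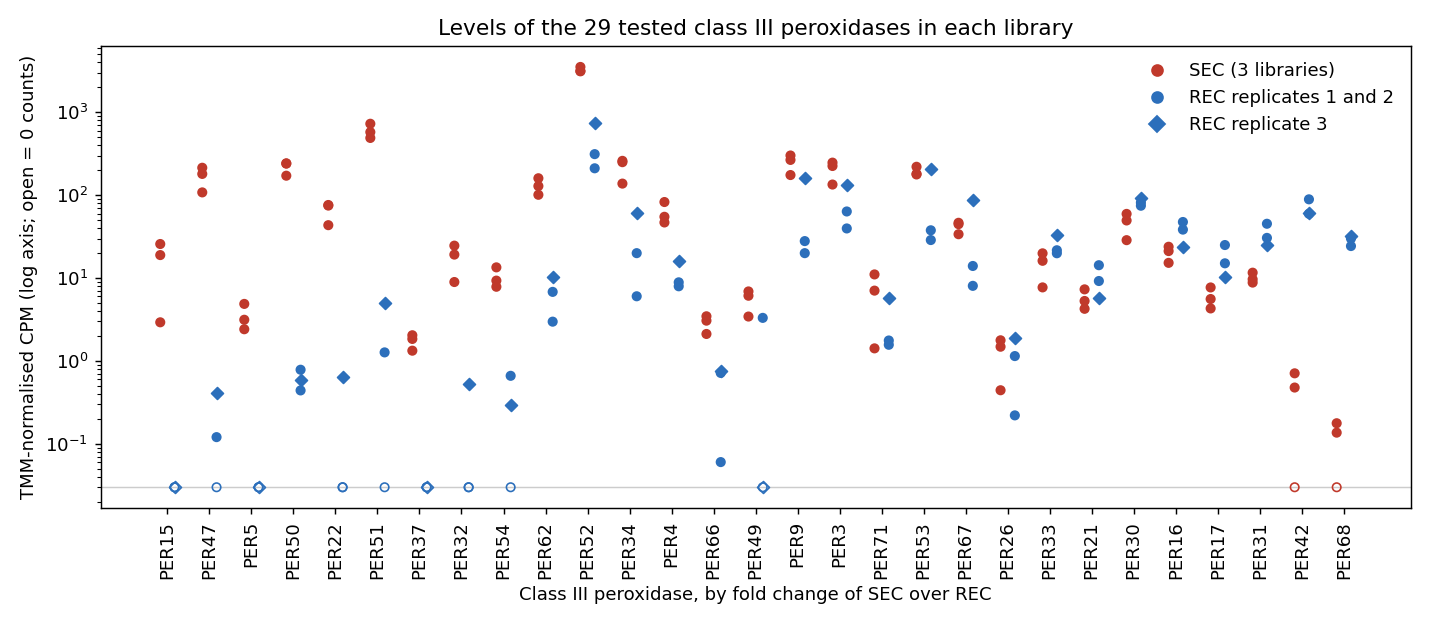
TMM-normalised CPM on a log axis of each tested class III peroxidase in each SEC library (red, left of each name) and each REC library (blue, right), with REC replicate 3 as a diamond and open symbols for 0 counts. PER50, PER51, PER47 and PER22 are far apart between groups, PER42 and PER68 are far apart in the other direction, and the REC replicate 3 diamonds of PER53 and PER67 reach or pass the SEC points.

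PER42 and PER68 were almost confined to REC in these libraries. PER42 (AT4G21960; chr4:11646174-11648462, minus strand) was at 0.710, 0.478 and 0 CPM in SEC, against 59.7, 89.1 and 60.8 CPM in REC. PER42 had a log2 fold change of -7.40 ± 0.67 (SE; adjusted p = 6e-05 by edgeR), and -7.99 without SEC replicate 1. PER68 (AT5G58400; chr5:23605202-23607028, minus strand) was at 0.178, 0.137 and 0 CPM in SEC, against 30.0, 24.3 and 31.8 CPM in REC, with a log2 fold change of -7.94 ± 0.61 (SE; adjusted p = 3e-05, edgeR). Both were at 0 in SEC replicate 3. REC replicate 3 lay within or beside the range of the other REC libraries for both, unlike for PER52, PER9 or PER53. Photosynthetic genes moved the same way: RBCS1A, a Rubisco small subunit gene, was at 0.444, 3.49 and 1.58 CPM in SEC, against 897, 1123 and 645 CPM in REC, and the part of such cells or their RNA in the 2 values was not tested.

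PER31, PER17 and PER30 were lower by less. PER31 (AT3G28200), a gene with 1 exon, was at 9.67, 11.6 and 8.83 CPM in SEC, against 30.5, 45.2 and 25.1 CPM in REC, without overlap. PER31 had a log2 fold change of -1.74 ± 0.32 (SE; adjusted p = 0.00198 by edgeR). PER30 (AT3G21770) was at 28.7, 49.5 and 59.5 CPM in SEC, against 81.3, 74.6 and 93.3 CPM in REC, also without overlap. PER30 had a log2 fold change of -0.86 ± 0.29 (SE; adjusted p = 0.0315 by edgeR), and the call was lost without REC replicate 1 (0.0599), REC replicate 3 (0.0667), SEC replicate 1 (0.0643) or SEC replicate 2 (0.0604).

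The remaining uncalled members were PER16, PER21, PER26, PER49 and PER67. PER16 (AT2G18980) was at 15.3, 21.2 and 23.9 CPM in SEC, against 38.4, 47.5 and 23.5 CPM in REC, where replicate 3 fell within the SEC range. Its log2 fold change of -0.86 ± 0.33 lay near the threshold (SE; adjusted p = 0.053 by edgeR), and -1.09 without REC replicate 3 (0.0135) was called, as it was in 7 of 15 alternatives in all. PER21 (AT2G37130) had a log2 fold change of -0.80 ± 0.48 (SE; adjusted p = 0.178) and was called lower with library size alone (-1.34, adjusted p = 0.0419). PER67 (AT5G58390), the neighbour of PER68, was at 33.8, 44.7 and 46.4 CPM in SEC, against 14.0, 8.06 and 87.1 CPM in REC. Its value from REC replicate 3 was above every SEC library, and the log2 fold change of 0.20 ± 0.77 (SE; adjusted p = 0.84 by edgeR) became 1.93 without that library (adjusted p = 0.00228). PER49 (AT4G36430) was at 6.12, 6.90 and 3.44 CPM in SEC, against 0, 3.31 and 0 CPM in REC, with a log2 fold change of 2.30 ± 1.58 (SE; adjusted p = 0.237 by edgeR). Without REC replicate 2, which held all its REC reads, it was at least 63.2-fold higher in SEC. PER26 (AT2G43480) was near 1 CPM in both groups, with a log2 fold change of 0.19 ± 1.00 (SE; adjusted p = 0.877 by edgeR), or 0.86 without REC replicate 3. In RefSeq's annotation it overlaps AT2G43490 on the other strand, whose log2 fold change was 1.39 (edgeR adjusted p = 0.00905). The part of those reads was not tested. Limma's voom with quality weights called PER9, PER49, PER53, PER66 and PER67 higher and PER16 lower, and DESeq2 called PER9 (adjusted p = 0.00749), PER66 (0.0301) and PER16 (0.0388).

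REC replicate 3 was the highest REC library for 18 of the 29 tested peroxidases (62.1%), against 38.6% of all tested genes. Its level was 7.96 times the mean of REC replicates 1 and 2 for PER51, 7.90 times for PER67, 6.29 times for PER53, 4.66 times for PER34 and 2.80 times for PER52, of which PER67 and PER53 were not called. For PER47 it was 6.82 times, on 2, 0 and 7 counts in REC. Among other higher members the ratio was 2.55 in PER3, 2.09 in PER62, 1.89 in PER4, 0.96 in PER50 and 0.89 in PER54. PER22 and PER32 had all their REC reads in replicate 3, so no ratio can be given for them. For the lower members the same ratio was 1.17 in PER68, 1.20 in PER30, 0.82 in PER42, 0.66 in PER31 and 0.51 in PER17. The summed abscission zone markers were at 7041 to 9058 CPM in SEC, against 208 to 508 CPM in REC, with 508 CPM in REC replicate 3. ADPG2, at 3895 to 5656 CPM, was the largest term of the SEC sums, and HSL2, which was lower in SEC, was lowest among the REC libraries in replicate 3, and the part of SEC-like RNA in that library's peroxidase values was not tested. Without REC replicate 3, 18 members were called higher in SEC and 6 lower, OCP3 included.

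The order of levels per kilobase of exon differed between the cell types. In SEC, after PER52 and PER51, the members were PER9 at 166 ± 43.6 CPM per kilobase, PER3 at 161 ± 47.6, PER50 at 158 ± 29.01, PER53 at 144 ± 17.6, PER34 at 142 ± 44.4 and PER47 at 119 ± 38.6 (SD, n = 3). The ranges of neighbours among these 6 overlapped. In REC, after PER52, the members were PER53 at 68.5 ± 75.8 CPM per kilobase, PER30 at 67.1 ± 7.64, PER3 at 62.5 ± 38.1, PER9 at 46.4 ± 52.6 and PER42 at 38.2 ± 9.12 (SD, n = 3), and the ranges of neighbours in this order overlapped as well. PER30 and PER42 were among the first 6 in REC and not among the first 8 in SEC.

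Of the 74 members, 24 lay in 11 runs of neighbours with at most 1 other gene between them. In the runs, 10 were higher, 1 lower, 4 not called and 9 not tested. Among the 50 members outside runs, 4 were higher, 4 lower, 6 not called and 36 not tested. Over all genes tested, 28.9% were higher and 31.9% lower. In the runs, PER5, PER15 and PER37 had 0 counts in REC. PER22, PER50, PER51 and PER54 had too few counts in 1 or more REC libraries. All of these passed the filter on low counts only through SEC and so had to differ. These counts therefore describe the members and draw no contrast between runs and other members. Both members of 2 pairs, PER4 with PER5 (71.8% identical in coding sequence) and PER50 with PER51, were higher in SEC. In 3 pairs 1 copy was higher and the other had no count in any library: PER15 with PER14 (91.7% identical), PER22 with PER23 (90.6%) and PER37 with PER38 (93.8%). PER67 and PER68 (70.3%) differed in that PER68 was called lower and PER67 was not called. PER1 and PER2 were 100% identical over their coding sequences, so a read from within them cannot be assigned to either.

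**Figure D4:**
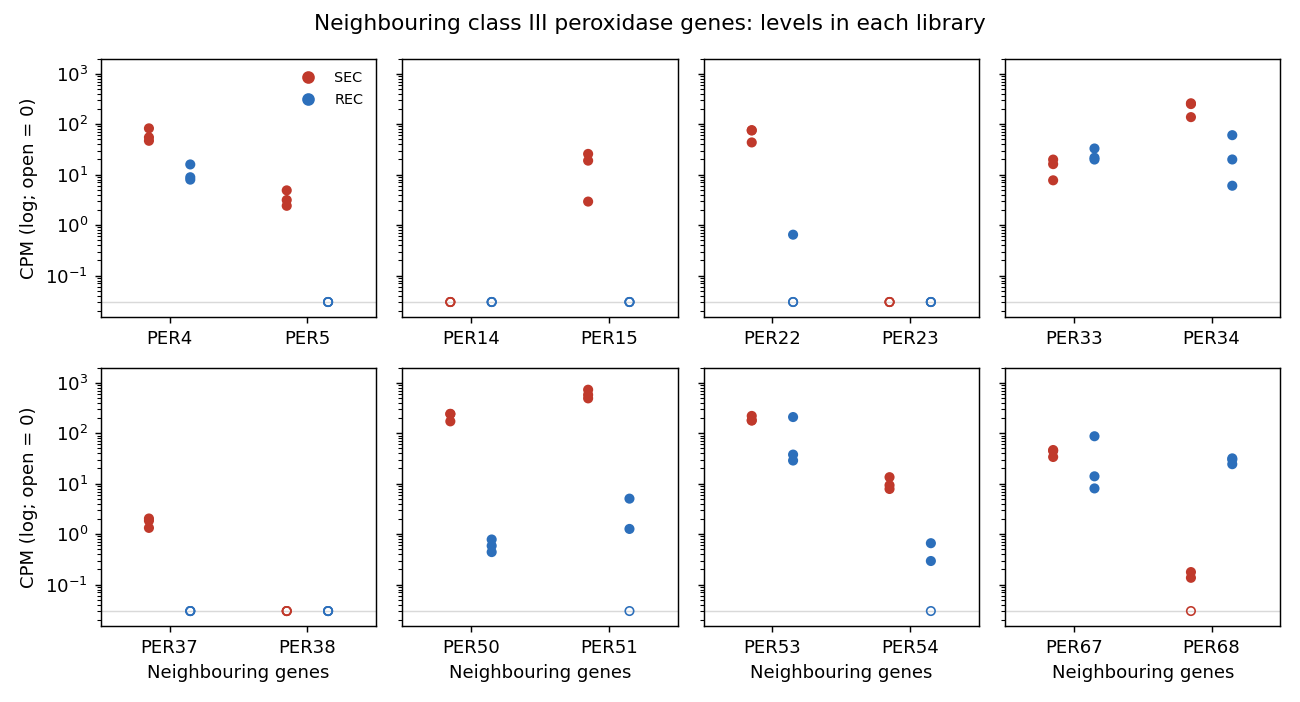
TMM-normalised CPM on a log axis of 8 pairs of neighbouring class III peroxidase genes, with SEC libraries in red to the left of REC libraries in blue and open symbols for 0 counts. PER14, PER23 and PER38 are at 0 in all 6 libraries beside a neighbour with reads in SEC, and PER50 and PER51 are both high in SEC. PER33 shows almost no gap between groups where PER34 shows a clear one.

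Members with similar sequences did not always get the same call. Over the 2701 pairs of members, the median identity of coding sequences was 50.8% (22.9 to 100%), and 12 members had another at 90% or more. PER3 and PER30, each the closest relative of the other at 67.5% identity, were called in opposite directions. PER3 lost its call in 5 of 15 alternatives and PER30 in 4 of 15, and the difference between their fold changes was not tested. PER62 was called higher. PER71, at 75.7% identity to it, had a log2 fold change in the same direction, 1.10, that was not called. PER32 and PER34, at 84.2% and not neighbours, were both higher. Of the 74 members, 50 had 4 exons in the longest RefSeq transcript. Among these 50 were 13 of the 14 higher and 2 of the 5 lower members, with 6 not called and 29 not tested. A link of exon number to direction was not tested. The table counts non-unique alignments separately, at 6.86 to 7.53% of alignment records in SEC and 9.28 to 11.83% in REC, so levels of near-identical copies are uncertain. Of the 75 genes of the rule, 13 overlapped a gene on the other strand in RefSeq's annotation.

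The upstream windows of PER52, PER42 and PER68 are shown because these are the most abundant member and the 2 members with the lowest fold changes. Each is the 250 bases before the gene start in RefSeq's annotation, on the minus strand of TAIR10.1, at chr5:1580876-1581125, chr4:11648645-11648894 and chr5:23607046-23607295 in that order. Capitals mark matches to an AC element, known from lignin gene promoters, or a TATA box, searched on both strands.
PER52 upstream: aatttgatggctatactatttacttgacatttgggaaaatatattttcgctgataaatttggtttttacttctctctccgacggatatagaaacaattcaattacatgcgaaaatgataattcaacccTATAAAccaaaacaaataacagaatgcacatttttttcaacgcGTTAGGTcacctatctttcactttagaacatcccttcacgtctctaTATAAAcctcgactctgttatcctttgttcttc
PER42 upstream: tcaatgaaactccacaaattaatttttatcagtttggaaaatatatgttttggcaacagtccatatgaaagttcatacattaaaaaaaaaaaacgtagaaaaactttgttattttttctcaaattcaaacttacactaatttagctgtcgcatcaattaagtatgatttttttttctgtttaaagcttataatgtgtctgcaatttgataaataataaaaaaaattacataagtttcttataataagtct
PER68 upstream: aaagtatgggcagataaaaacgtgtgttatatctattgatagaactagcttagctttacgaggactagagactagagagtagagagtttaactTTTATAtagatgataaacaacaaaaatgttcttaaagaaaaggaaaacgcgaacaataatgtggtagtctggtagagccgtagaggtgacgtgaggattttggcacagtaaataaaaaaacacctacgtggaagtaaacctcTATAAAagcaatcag
PER52 held 1 AC element and 2 TATA boxes, PER68 held 2 TATA boxes, and PER42 held no match in these letters. Over windows of the same length before 27443 protein-coding genes, 6.12% held an AC element (any of the letters ACCAACC, the letters ACCTACC and the letters ACCTAAC), against 6.76% of the 74 members, 1 of the 14 higher and none of the 5 lower ones. A TATA box (TATAAA) stood in 47.3% of all windows, 54.1% of the members' windows, 7 of the 14 higher and 3 of the 5 lower ones. The W box, spelled TTGACC or else TTGACT, stood in 28.4% of all windows, 31.1% of the members', 4 of 14 and 1 of 5, and the G box (CACGTG) in 6.49%, 4.05%, 0 and 0. The shares of the members lay near those of all genes for each motif, and a match describes letters only.

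The 19 members with counts too low for a test had 2 to 129 counts over all libraries, with more counts in SEC for 10 and in REC for 9, and 5 had reads in 1 library only. PER55 had 6, 54 and 65 counts in SEC and 0, 0 and 4 counts in REC, and PER46 had 0, 14 and 6 counts in SEC and none in REC. PER56 had 16, 0 and 4 counts in SEC and none in REC. In the other direction, PER60 had 3, 0 and 0 counts in SEC and 10, 13 and 3 counts in REC, a ratio of REC over SEC of 6.15 (95% counting interval 1.88 to 31.7). PER43 had 2, 0 and 2 counts in SEC and 0, 12 and 19 counts in REC. PER12, PER63 and PER70 had nearly all their reads in REC replicate 2, with 36, 24 and 10 counts there and at most 3 counts in any other library, so 1 library sets their direction.

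Genes that supply or use the same substrates were counted from lists drawn up for this family. Among all genes tested, 28.9% were higher in SEC and 31.9% lower. Of 5 tested NADPH oxidases, which produce superoxide outside the cell, 4 were higher in SEC and none lower. RBOHD was at 365, 570 and 801 CPM in SEC, against 39.9, 43.6 and 60.9 CPM in REC, and RBOHC at 105, 159 and 192 CPM in SEC, against 2.47, 0.773 and 0.0588 CPM in REC. Their log2 fold changes were 3.59 ± 0.35 and 7.11 ± 0.86 (SE; adjusted p = 8.12e-05 and 0.000236 by edgeR). RBOHF was also higher, by log2 2.54 ± 0.27.

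Enzymes that make or remove hydrogen peroxide inside the cell were mixed. Of 7 superoxide dismutases, CSD1, of the cytosol, was higher (log2 fold change 2.45 ± 0.37 SE) and 4 were lower, among them FSD1 at 20.1, 69.2 and 89.6 CPM in SEC, against 1633, 1375 and 1265 CPM in REC. Of 3 catalases, CAT1 was higher (1.85 ± 0.25) and CAT2 and CAT3 lower. Of 8 ascorbate peroxidases, 3 were higher and 3 lower, with APX1, of the cytosol, at 0.84 ± 0.20 and TAPX, of the thylakoid, at -4.05 ± 0.53.

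On the lignin side, 3 of 4 tested laccases were higher and none was lower, and 6 of the 17 listed had no counts. LAC15 was at 52.0, 65.7 and 80.4 CPM in SEC and LAC7 at 39.9, 46.7 and 59.8 CPM, both with 0 counts in REC. LAC11, the other higher laccase, had 27, 28 and 21 counts in SEC and 0, 0 and 5 counts in REC. All 3 therefore passed the filter on low counts only through SEC and had to differ, so their count describes these genes only. Of 16 tested monolignol genes, 9 were higher and 2, 4CL2 and COMT1, were lower. CAD5, a cinnamyl alcohol dehydrogenase gene, was at 2049, 2220 and 1925 CPM in SEC, against 366, 321 and 409 CPM in REC. Of 3 tested genes of Casparian strip assembly, CASP2 was lower, at 1.86, 3.14 and 3.25 CPM in SEC, against 29.2, 22.1 and 45.3 CPM in REC, and none was higher. Of the regulators, MYB58, an activator of lignin genes, was higher (log2 fold change 2.72 ± 0.53 SE), while its relative MYB63 (-2.41 ± 0.63) and UPB1 (-2.07 ± 0.75), a repressor of peroxidase genes in roots, were lower.

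Markers of other cells and of stress moved with the same contrast, and their part in the peroxidase values was not tested. Of 9 genes of wounding or protoplast stress, 6 were higher in SEC and 1 lower, against 28.9% and 31.9% of all genes tested. Their summed level was 4660 to 5163 CPM in SEC, against 803 to 1332 CPM in REC. Among 7 xylem markers XCP2, CESA8 and VND7 were at 0 in every library and CESA7 was at 0 in SEC. XCP1 had 14, 11 and 9 counts in SEC and 0, 1 and 0 counts in REC, and CESA4 had 7, 0 and 0 counts in SEC and 109, 20 and 0 counts in REC. The list summed to 595 to 877 CPM in SEC, against 1.21 to 9.47 CPM in REC, and MC9 gave almost all of the SEC sum. Photosynthetic markers summed to 1.67 to 5.74 CPM in SEC, against 764 to 1743 CPM in REC, and all 3 tested of 5 were lower. Epidermal markers summed to 0 to 3.82 CPM in SEC, against 14.96 to 28.5 CPM in REC, with 3 of 4 lower. Phloem markers summed to 0 to 1.30 CPM in SEC, against 0.882 to 13.7 CPM in REC, and guard cell markers to 0 to 0.372 CPM in SEC, against 0 to 2.29 CPM in REC. Pollen markers summed to 5.59 to 25.8 CPM in SEC, against 0.607 to 4.40 CPM in REC, led by ACA9.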

How the data were processed

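The deposited table gives raw read counts per gene for 3 SEC and 3 REC libraries. Per the submitters' processing notes, the tools named, with TAIR10, were HTSeq 0.6.1, TopHat2 2.0.9, Trimmomatic 0.32.3, Picard 1.119, bcl2fastq 1.8.4, FastQC 0.11.2 and DESeq2. For the annotation release, the strand setting and any removal of duplicates, the value is not given in the sources used here. Rows that name no gene (no feature, 42.78 to 45.91% of records; ambiguous, 0.41 to 0.54%; non-unique, 6.86 to 11.83%) were left out of library sizes.

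Here, counts were fitted with edgeR 4.0.16 in R 4.3.3 (TMM factors, filterByExpr, quasi-likelihood F test, Benjamini-Hochberg adjustment over all 17246 genes that passed the filter), which was tested on simulated data. The standard error is the log2 fold change divided by the square root of F. Alternatives used DESeq2 1.42.0, limma 3.58.1 (voom), other scalings and filters, a replicate block and each library left out. Every member that passed the filter is named, and untested members are named from 10 counts in 1 library or from the lignin, burst and root hair lists. Members and lists were chosen with earlier results of these data known. PER2 is AT1G05250, which the table lists as PER1. Coordinates are the table's, counted from 1. Sequences, coding identities (biopython 1.88) and upstream windows come from RefSeq's TAIR10.1, matched by locus (32454 of 33602 genes, and all 74 peroxidases). Gene lengths are RefSeq exon lengths. Precision rests on 13222538 to 17192864 counts per library.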

Additional observations from a re-analysis of the deposited data

How the results depend on the processing

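Of 20 called members, 17 kept their call in every one of up to 15 alternatives: 13 higher and 3 lower peroxidases and OCP3. The exceptions were PER3, PER17 and PER30, and 8 of the 10 uncalled members were called in at least 1 alternative. Of 440 member values, 397 kept direction and side of the threshold, 12 lost the call, 23 gained one and 8 changed sign. The 8 belonged to PER26 (-0.039 with upper-quartile factors, -0.32 with library size alone, -0.29 without REC replicate 2, -0.22 without SEC replicate 2) and PER67 (-0.026 with upper-quartile factors, -0.32 with library size alone, -0.20 without REC replicate 1, -0.29 without REC replicate 2), neither of which was called in those settings, and the cause was not tested. With 1 library left out, PER26 ranged from -0.29 to 0.86 and PER67 from -0.29 to 1.93 on the log2 scale. The count of higher members, 14, was 9 with a filter of 10 CPM, where fewer genes were tested, 16 with DESeq2, no filter or the block, 19 with voom, and 13 to 18 with 1 library left out. The count of lower members with OCP3 included, 6, was 9 with library size alone and 4 to 6 with 1 library left out.

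The labels do not say whether same-numbered libraries share plants or a sorting run. Deviations of same-numbered libraries correlated at -0.0238, -0.013 and -0.0148, within a range of -0.0386 to 0.0578 over all pairs. With 3 libraries per group, such values cannot decide whether the samples are paired. With the replicate block 16 members were higher and 6 lower, OCP3 included. PER9 (2.44, adjusted p = 0.0143) and PER53 (1.69, adjusted p = 0.0424) were then called by edgeR. The share of all genes called with the block was 55.2% in place of 60.8%. That share was 50.1 to 60.6% with 1 library left out. Calls in the pathway lists, 22 higher and 14 lower, ranged from 16 to 23 and from 10 to 19 over all alternatives. The 19 members with 2 to 129 counts over all libraries were not tested, and depth was not varied.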
